A study of Mus musculus with 2 samples.

Results

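Collagens are the main structural proteins of the extracellular matrix, and each molecule is a triple helix of alpha chains that are encoded by separate genes. Fibrillar chains such as Col1a1, Col1a2 and Col3a1 assemble into the banded fibres of connective tissue, type IV chains form the sheet of basement membranes under epithelium and endothelium, and FACIT chains such as Col12a1 and Col14a1 sit on the surface of fibrils. In tumours fibroblasts are the best known source of fibrillar collagen, and a heterotrimer such as type I needs the products of more than 1 gene in the same cell.

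The genes described here are all collagen alpha chain genes whose symbol has the form Col, number, a, number, chosen by name and not by level. They were 44 of 34400 gene identifiers in the tables of both libraries together: 11 fibrillar chains, 6 basement membrane (type IV) chains and 27 others. The others comprised 6 beaded filament (type VI), 9 FACIT, 3 short-chain (types VIII and X), 4 transmembrane, 2 multiplexin (types XV and XVIII), 1 anchoring fibril (type VII) and 2 remaining chains. All 44 had at least 1 UMI (1 counted transcript molecule) in the cells kept. Col2a1, Col4a3, Col6a4, Col9a1 and Col9a2 had under 20 UMIs over both libraries. In the 5 gated classes described below, 31 of the 44 reached 20 UMIs in at least 1 class; the 8 others that did not (Col4a6, Col8a2, Col11a1, Col13a1, Col19a1, Col22a1, Col25a1 and Col26a1) had at most 18 UMIs in any class.

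RNA was counted in single cells of mouse tumours grown from CT26, an established mouse colon carcinoma line. There were 2 libraries, 1 per group. Mice of the control group received anti-IgG and mice of the antibody group SLC7A11-Ab, an antibody against the cystine importer SLC7A11, each given every 2 days at 10 mg/kg once tumours measured 50 to 100 mm³. How many animals a library holds, and their age, strain and sex, are not given in the sources used here, and the design text names both a caecal injection and subcutaneous growth. The tissue was dissociated with 0.1% collagenase IV. With 1 library per group no p-value can be given. All 95% intervals are exact binomial ones, cover counting error only, and leave out the variation between cells, animals and library preparations.

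The libraries held 13910 control and 12153 antibody barcodes with 129044329 and 143658800 UMIs, and 39 barcodes occurred in both. After filtering, 12326 and 10897 cells were left, with median depths of 7052 and 7201 UMIs. Cells were gated by marker UMIs that include no collagen gene. In the order control and antibody, the gates held 43 and 62 fibroblast cells, 1855 and 1201 decorin-high cells, 2322 and 1317 tumour cells, 23 and 20 endothelial cells, and 844 and 990 macrophages. Decorin-high cells had at least 30 UMIs of Dcn, the gene of the small collagen-binding proteoglycan decorin, per 10000. They also had no UMI of the Y-linked genes by which male host cells were recognised. A Y-linked UMI was seen in 37.32% of control and 49.49% of antibody macrophages, and in 41.67% and 47.95% of T cells. A cell without such a UMI can thus still be a host cell. Tumour cells had at least 1 epithelial keratin or junction marker UMI, less Dcn, and no Y-linked UMI. The Dcn cut divides a continuous range: 344 control and 235 antibody decorin-high cells were below 40 per 10000, and 144 and 77 tumour cells were at 20 or more. T cells (144 and 709), which should make no collagen, served as the main background for free RNA. A second such class, neutrophils (129 and 201 cells), was shallow, with median depths of 662 and 774 UMIs and 58 and 59 collagen UMIs in all. The sample label reads "Goblet cells", but the 7 goblet markers together reached at most 2.67 CPM (UMIs of a gene per 1e6 UMIs of a class) in the 5 gated classes. This value does not cover the cells in no gate. Median depths were 8651 and 11537.5 UMIs for fibroblast, 4276 and 6499 for decorin-high, 11862.5 and 19480 for tumour, 4467 and 8420.5 for endothelial and 3619.5 and 5857 for macrophage cells. The antibody cells were thus deeper in each of these classes, and 56.5% of control and 58.6% of antibody cells kept passed no gate.

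Promoter sequences were printed for 4 chains on which the account of decorin-high cells turns: Col3a1 and Col6a2, whose levels climbed with decorin, Col10a1, which differed most between the libraries there, and Col8a1, which did not follow decorin. Each is the 250 bases before a RefSeq transcript start (build GRCm38.p6), free of annotated exons and written along the gene's strand. The windows are chr1:45311288-45311537 (plus strand) for Col3a1, chr10:76623631-76623880 (minus strand) for Col6a2, chr10:34389731-34389980 (plus strand) for Col10a1 and chr16:57754738-57754987 (minus strand) for Col8a1. Capitals mark matches on either strand to the TATA box letters TATAAA, the CCAAT box letters CCAAT or the GC box letters GGGCGG, so a GC box on the other strand reads CCGCCC.
Col3a1: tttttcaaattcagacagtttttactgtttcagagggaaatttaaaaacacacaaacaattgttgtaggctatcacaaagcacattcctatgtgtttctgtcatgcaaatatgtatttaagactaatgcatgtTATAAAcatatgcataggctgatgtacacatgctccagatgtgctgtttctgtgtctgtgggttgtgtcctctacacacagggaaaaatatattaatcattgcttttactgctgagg
Col6a2: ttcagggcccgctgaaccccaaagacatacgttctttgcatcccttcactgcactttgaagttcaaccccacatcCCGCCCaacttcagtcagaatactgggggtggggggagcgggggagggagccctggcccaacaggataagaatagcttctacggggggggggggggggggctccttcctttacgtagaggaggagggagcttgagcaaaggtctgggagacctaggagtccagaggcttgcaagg
Col10a1: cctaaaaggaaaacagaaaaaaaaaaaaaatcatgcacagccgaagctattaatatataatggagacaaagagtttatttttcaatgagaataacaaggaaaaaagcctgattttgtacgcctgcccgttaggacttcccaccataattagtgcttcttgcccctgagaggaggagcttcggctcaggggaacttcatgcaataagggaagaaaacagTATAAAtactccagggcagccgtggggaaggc
Col8a1: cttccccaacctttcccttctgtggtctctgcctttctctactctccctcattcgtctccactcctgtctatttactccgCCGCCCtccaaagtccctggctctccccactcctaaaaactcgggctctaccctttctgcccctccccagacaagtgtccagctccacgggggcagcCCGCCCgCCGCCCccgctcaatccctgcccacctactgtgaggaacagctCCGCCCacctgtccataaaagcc
The Col3a1 window held 1 TATAAA match starting 117 bases before the start site, and the Col10a1 window held 1 starting 32 bases before it. The Col6a2 window held 1 GC box match and the Col8a1 window 4. The window of another Col6a2 start (chr10:76623405-76623654), not printed because it overlaps an exon, held 3. Of 32817 promoter windows of this length, 12.37% held TATAAA, 33.83% CCAAT and 32.72% GGGCGG. The promoter table covered 35 of the 44 genes. A match describes letters in the window and is not evidence of factor binding, and no readout of promoter activity was measured here.

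Across the gated classes, the fibroblast cells had the highest collagen level. Collagen transcripts made up 3.401% of all control fibroblast UMIs and 5.239% of all antibody ones. The summed level was 34010 and 52390 CPM in fibroblast cells, 5360 and 3847 in endothelial cells, 2628 and 1944 in decorin-high cells, 1127 and 910.7 in tumour cells, and 294.4 and 232.7 in macrophages, against 169.5 and 214 in T cells and 550.9 and 319.6 in the shallow neutrophils. The summed macrophage level was thus under that of 1 of the background classes. The order of the 5 classes was the same in both libraries. On the log2 scale the fibroblast level exceeded the tumour level by 4.92 among control cells and 5.85 among antibody cells. Decorin-high cells exceeded tumour cells by 1.22 and 1.09. UMI counts from the 3′ end count 1 per molecule and were not divided by gene length.

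**Figure D1:**
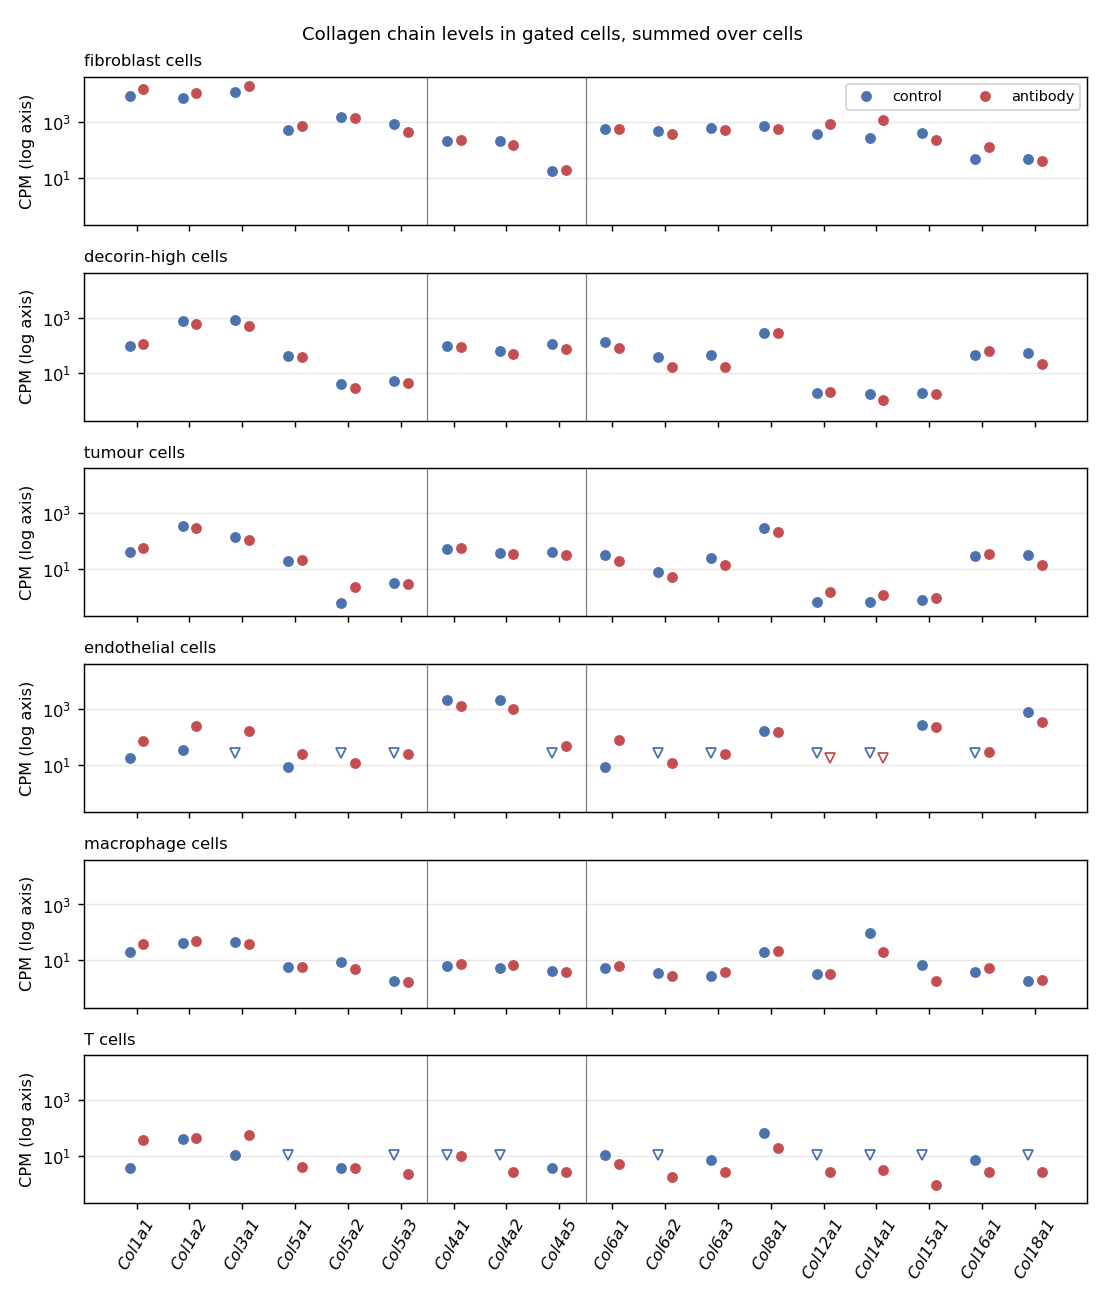
Level of 18 collagen chains (CPM, log axis) in each gated class and in T cells as background, control in blue and antibody in red; points are sums over the cells of a class, open triangles mark 0 UMIs and sit at the level of 3 UMIs. The vertical lines separate fibrillar, type IV and other chains. Fibroblast cells are highest for the fibrillar chains and endothelial cells for Col4a1, Col4a2 and Col18a1. Of 9 chains with enough UMIs, only Col14a1 is at least 2-fold higher in macrophages than in T cells in both libraries.

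Few cells carried much of the collagen. The control fibroblast cells were 0.349% of cells and held 9.68% of all collagen UMIs and 14.45% of the fibrillar ones. In the antibody library 0.569% of cells held 24.3% of all collagen UMIs and 32.3% of the fibrillar ones. These fibroblast shares cover only cells with a Y-linked UMI, which the gate required. Basement membrane chains were spread differently: fibroblast cells held 1.23% and 2.24% of type IV UMIs, tumour cells 26.9% and 24.3%, and decorin-high cells 16.6% and 13.7%. Endothelial cells, 0.187% and 0.184% of cells, held 3.18% and 2.70%. Cells in no gate held 50.6% and 48.0% of all collagen UMIs, so the gated classes describe about as many molecules as they leave out. Without its keratin and junction markers the tumour gate held 8679 and 5796 cells, against 2322 and 1317. The cells added this way passed no gate here, so many ungated cells met the other rules of the tumour gate and lacked only such a marker UMI. Whether they were tumour cells was not tested.

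Family composition separated the classes. Fibrillar chains were 88.3% and 90.5% of fibroblast collagen UMIs, 66.4% and 64.1% in decorin-high cells, and 50.2% and 52.6% in tumour cells. Type IV chains were 75.3% and 62.0% in endothelial cells, with a further 19.0% and 14.7% from the multiplexins Col15a1 and Col18a1. The short-chain family, almost all Col8a1, made up 26.6% and 23.2% in tumour cells but 2.06% and 1.10% in fibroblast cells. FACIT chains were 36.3% of macrophage collagen UMIs in control cells and 14.0% in antibody cells, most of them Col14a1.

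**Figure D2:**
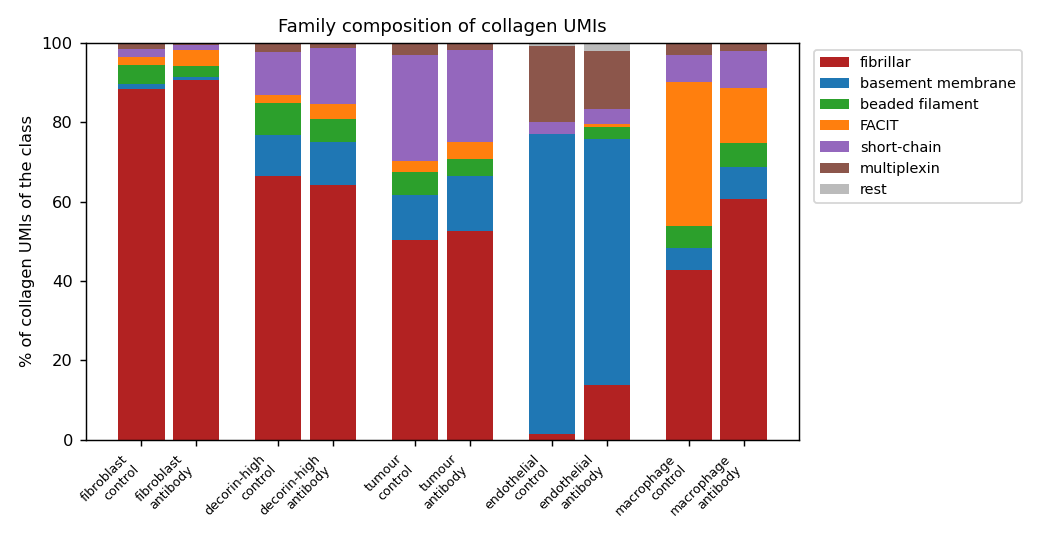
Share of each collagen family (% of the collagen UMIs of a class) in the 5 gated classes of both libraries. Fibrillar chains (red) dominate fibroblast cells at 88.3% and 90.5%, type IV chains (blue) dominate endothelial cells at 75.3% and 62.0%, and the short-chain family (purple) reaches 26.6% and 23.2% in tumour cells.

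Fibroblast cells carried each of the major fibril-forming chains. Col3a1, the homotrimeric chain of type III collagen, stood at 11670 CPM in control and 18880 in antibody fibroblast cells. Col1a1, which supplies most chains of the type I trimer, stood at 8218 and 15380, and its partner Col1a2 at 7261 and 10530. The type V chains that nucleate type I fibrils were lower: Col5a1 was 505.4 and 711.6, Col5a2 1451 and 1386, and Col5a3 818.5 and 418.3 CPM. Type VI chains, which form microfibrils around cells, were near one another, with Col6a1 at 568 and 568.6, Col6a2 at 454 and 369, and Col6a3 at 617.2 and 516.9. Of the 25 chains with at least 20 UMIs over fibroblast and tumour cells in each library, 21 were at least 2-fold higher in fibroblast cells in both libraries and none was 2-fold lower in both, where 12.4% of 12970 genes were higher and 5.65% lower. Col1a1 was 203-fold (interval 190 to 216) and 262-fold (249 to 276) higher in fibroblast than tumour cells, and Col1a2 only 20.2-fold and 36.4-fold. The exceptions were Col4a4, with 0 control fibroblast UMIs, Col4a5, at 17.9 against 39.3 CPM among control and 19.2 against 32.5 among antibody cells, and Col18a1 and Col16a1, whose control fibroblast level was 1.44-fold and 1.61-fold that of tumour cells.

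Col8a1, a short-chain network collagen, was the most abundant collagen of tumour cells after Col1a2. It stood at 299.4 and 210.7 CPM in tumour cells and was seen in 87.98% and 87.02% of them. In fibroblast cells it stood at 699.9 and 575.8, only 2.34-fold and 2.73-fold higher. Tumour cells also held Col1a2 at 358.5 and 289.5, Col3a1 at 141.2 and 104.9, Col4a1 at 50.5 and 57.8, Col4a2 at 38.7 and 34.9, Col4a5 at 39.3 and 32.5, Col16a1 at 29.2 and 33.5, and Col6a3 at 23.9 and 13.8 CPM. Against T cells 9 of 20 chains were at least 2-fold higher in tumour cells in both libraries: Col1a2, Col4a1, Col4a2, Col4a5, Col6a1, Col6a3, Col8a1, Col16a1 and Col18a1. None was 2-fold lower in both. Among 13019 genes 8.07% were higher and 15% lower. Most of the 9 rested on few control T cell UMIs: 0 for Col4a1, Col4a2 and Col18a1, 1 for Col4a5, 2 for Col6a3 and Col16a1, and 3 for Col6a1. Col1a2 had 11 and Col8a1 19. The control fold intervals of Col6a1 (0.974 to 13.9) and Col6a3 (0.915 to 27.4) included 1. Neutrophils held Col1a2 at 209 and 59.6 CPM, from 22 and 11 UMIs, so the control tumour level of Col1a2 was under 2-fold above this second background. The same held for 3 families, on few UMIs. Control neutrophils had type VI at 47.5 CPM (5 UMIs), multiplexins at 19.0 (2) and FACIT at 19.0 (2). Control tumour cells had 63.05, 33.4 and 32.8. Type IV (47.5 against 129.5) and short-chain (57.0 against 300.0) were more than 2-fold above it. After thinning each cell to 1000 UMIs, Col8a1 was seen in 25.55% and 19.6% of tumour cells and in 1.82% and 1.50% of T cells, whose median depths before thinning were 1560.5 and 2631 UMIs. Col1a1 and Col3a1 passed that mark in the control library but not in the antibody library, where tumour cells had 58.7 and 104.9 CPM and T cells 38.4 and 57.1. The gate asks for a keratin or junction UMI and so takes deeper cells.

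Chains that share a trimer were not in the same proportion in each class. The ratio of Col1a1 to Col1a2 UMIs was 1.13 (interval 1.08 to 1.19) in control and 1.46 (1.42 to 1.50) in antibody fibroblast cells. In decorin-high cells it was 0.118 (0.110 to 0.127) and 0.190 (0.178 to 0.203), and in tumour cells 0.113 (0.107 to 0.120) and 0.203 (0.192 to 0.214). Col1a2 UMIs thus outnumbered Col1a1 UMIs in decorin-high and tumour cells of both libraries, and not in fibroblast cells. The share of free RNA in the Col1a1 of tumour and decorin-high cells was not tested; T cells held 1 Col1a1 and 11 Col1a2 UMIs in the control library, and 86 and 102 in the other. The ratio of Col5a2 to Col5a1 was also highest in fibroblast cells, at 2.87 and 1.95 in fibroblast cells against 0.100 and 0.0771 in decorin-high and 0.0304 and 0.117 in tumour cells.

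Among type IV chains, the ratio of Col4a5 to Col4a1 was lower in fibroblast than in decorin-high and tumour cells. Col4a2 per Col4a1 lay at 0.989 and 0.628 in fibroblast cells, 0.674 and 0.566 in decorin-high cells and 0.767 and 0.603 in tumour cells. Col4a5, an X-linked chain that forms other type IV networks, was at 0.0889 and 0.0838 per Col4a1 UMI in fibroblast cells but 1.13 and 0.80 in decorin-high cells and 0.778 and 0.562 in tumour cells. Endothelial cells had 0 Col4a5 for 245 Col4a1 UMIs in the control and 8 for 222 in the other library. Within type VI, Col6a2 per Col6a1 was 0.799 and 0.649 in fibroblast cells, 0.303 and 0.214 in decorin-high cells and 0.246 and 0.258 in tumour cells. How efficiently each 3′ end was captured is not known, so a ratio is comparable between classes and not as a count of protein chains.

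**Figure D3:**
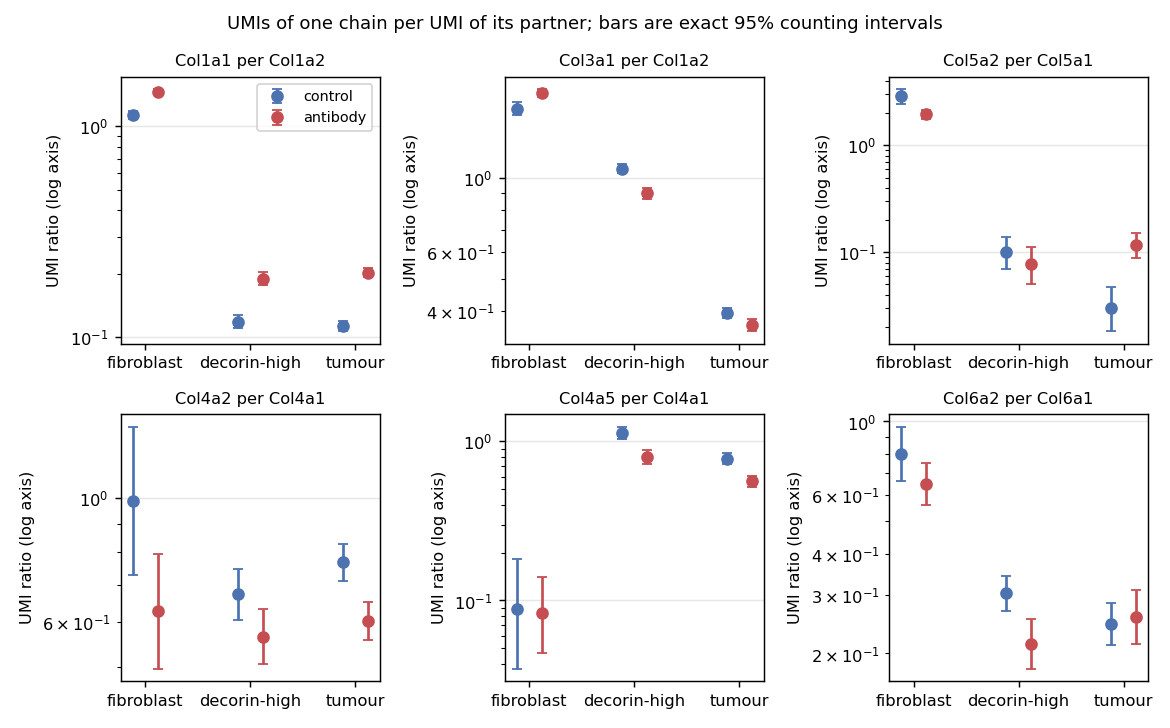
UMIs of 1 chain per UMI of its partner (log axis) in fibroblast, decorin-high and tumour cells, control in blue and antibody in red; bars are exact 95% intervals for counting error. Col1a1 per Col1a2 falls from 1.13 and 1.46 in fibroblast cells to at most 0.203 in the other classes, while Col4a5 per Col4a1 is lowest in fibroblast cells at 0.0889 and 0.0838.

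Decorin-high cells had Col3a1, Col6a1, Col6a2 and Col4a5 above the level of tumour cells. Of 22 chains, these 4 were at least 2-fold higher in both libraries: Col3a1 (5.84-fold and 4.92-fold), Col6a1 (4.13-fold and 4.02-fold), Col6a2 (5.09-fold and 3.33-fold) and Col4a5 (2.75-fold and 2.20-fold). None was 2-fold lower in both, and among 13456 genes 5.53% were higher and 2.99% lower. Col1a2 was 2.16-fold and 1.98-fold higher. Col8a1 was close in both classes, at 276.6 and 272.1 CPM in decorin-high cells. Against fibroblast cells, 19 of 22 chains were at least 2-fold lower in decorin-high cells in both libraries and 1, Col4a5, was higher, against 7.60% and 5.21% of 11208 genes. The 14 fibroblast markers together stood at 776.4 and 503.6 CPM in decorin-high cells, against 5186 and 8036 in fibroblast and 352.8 and 272.9 in tumour cells.

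Levels of several chains climbed with decorin across all cells that had no Y-linked or Ptprc UMI and passed no host marker gate. From cells with up to 5 Dcn UMIs per 10000 to those with 60 and more, Col3a1 went from 111.5 to 1042 CPM among control and from 85.1 to 641.8 among antibody cells. It was higher at each of the 4 steps in both libraries. Col6a1 went from 24.1 to 153 and from 18.9 to 94.3 CPM, and Col6a2 from 5.64 to 44.4 and from 5.25 to 22.1. Col1a2 was 2.43-fold and 2.07-fold higher in the top bin. Col8a1 was 0.866-fold and 1.23-fold, without a common direction. The top bin held 1043 and 651 cells with median depths of 3926 and 5809 UMIs, and the lowest bin above 0 held 2847 and 2074 cells with 11305 and 17351. The bin without Dcn was the shallowest, at 2331.5 and 1341 UMIs, and held Col3a1 at 107 and 90.7 CPM. Depth was thus lower with higher decorin only among the bins with Dcn, and its part in the pattern was not tested.

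**Figure D4:**
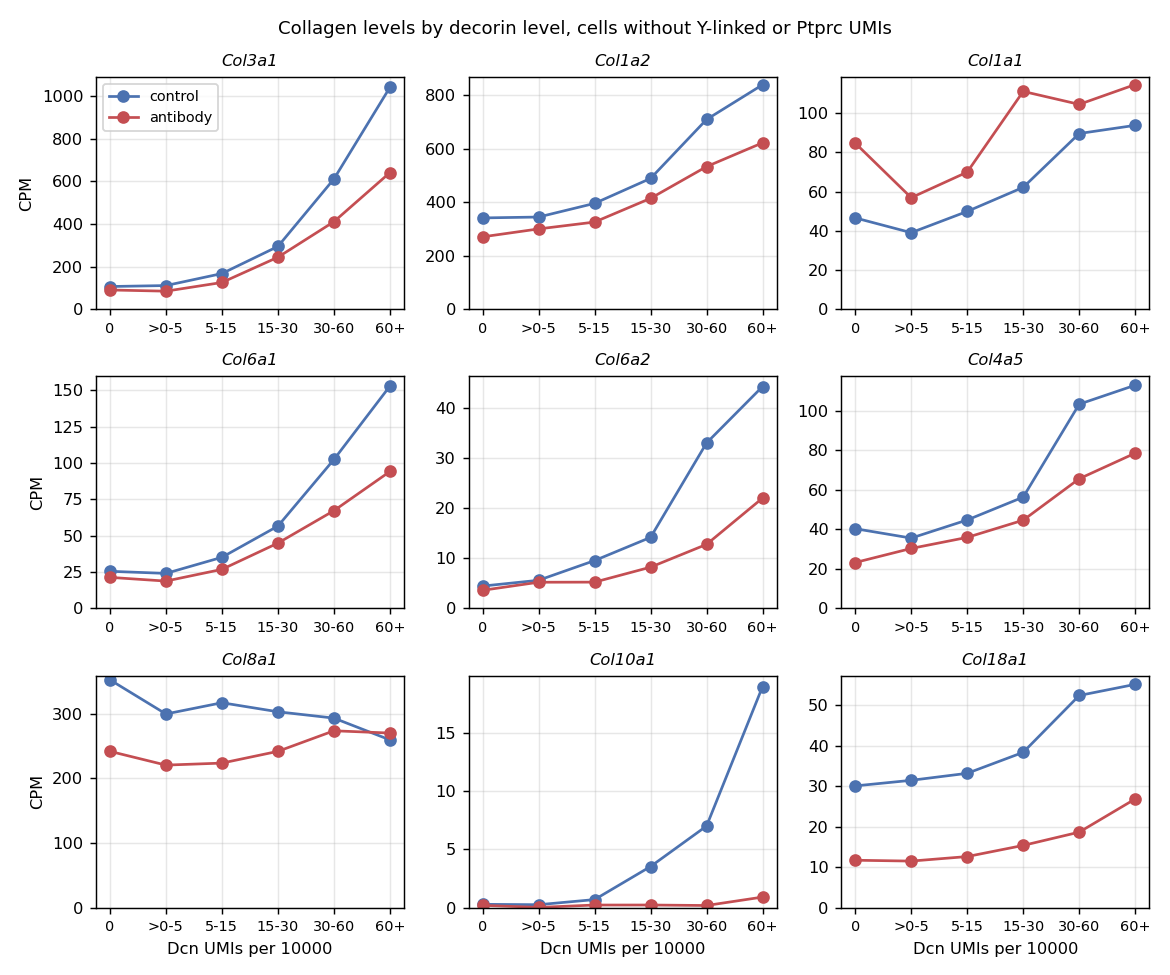
Level (CPM) of 9 collagen chains in cells grouped by Dcn UMIs per 10000, for cells without Y-linked or Ptprc UMIs that pass no host marker gate; control in blue, antibody in red, each point a sum over the cells of a bin. Col3a1 reaches 1042 and 641.8 CPM in the highest bin, Col8a1 stays between 220.6 and 352.6 throughout, and Col10a1 climbs to 19.0 CPM in the control library but not above 0.911 in the antibody library.

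In endothelial cells the type IV family had the largest sum. Col4a1 was 2049 CPM in 23 control cells and 1310 in 20 antibody cells, from 245 and 222 UMIs, and at least 1 UMI was seen in every one of these cells. Col4a2 was 1990 and 1027. Col18a1, the source of the endostatin fragment, was 760.9 and 342.2, and its relative Col15a1 259.2 and 224.2. Against tumour cells 4 of 19 chains were at least 2-fold higher in both libraries, namely Col4a1, Col4a2, Col15a1 and Col18a1, and none lower, against 14.3% and 2.13% of 12770 genes. Against fibroblast cells Col4a1, Col4a2 and Col18a1 were higher and 13 of 18 chains lower, against 8.67% and 10.3% of 4415 genes. The 12 endothelial markers were all detected and stood at 10030 and 6119 CPM.

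Of 9 chains with enough UMIs over macrophages and T cells, only Col14a1, a FACIT chain of fibril surfaces, was at least 2-fold higher in macrophages in both libraries; it was at least 8.94-fold higher against a T cell count of 0 in the control, with a floor of 3 UMIs in the class sum, and 6.56-fold in the other library. None was lower in both, and among 9573 genes 10.0% were higher and 11.5% lower. For 4 of the 9 the direction differed between the libraries. Col3a1 was 4.29-fold the T cell level in the control, against 3 T cell UMIs, and 0.685-fold in the other library. Col8a1 was 0.290-fold and 1.12-fold. Against tumour cells 4 of 21 chains were higher in macrophages in both libraries (Col5a2, Col12a1, Col14a1 and Col15a1) and 12 lower, against 15.7% and 18.5% of 13576 genes. For Col12a1, 1 control macrophage held 11 of 11 UMIs and 1 antibody macrophage 14 of 20; without these cells' UMIs the level was 0 and 0.931 CPM, against 0.636 and 1.45 in tumour cells. Without the top cell Col5a2 stood at 0.292 CPM in the control, against 0.604. Neither of these 2 chains was then higher than in tumour cells in both libraries. Neutrophils had 1 and 2 UMIs of Col14a1. The other 17 chains with at least 20 UMIs in macrophages had between 1.55 and 49.65 CPM. For the fibrillar chains, 1 control macrophage held 36 of 70 Col1a1, 80 of 159 Col3a1 and 28 of 29 Col5a2 UMIs. The antibody macrophages had Col1a1 at 38.3 CPM and Col1a2 at 49.65, and the antibody T cells had 38.4 and 45.5.

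The libraries were then compared within each class, as antibody over control. A chain was called different at 2-fold or more with at least 20 UMIs in the class.

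In fibroblast cells 3 FACIT chains were higher in the antibody library. Col14a1 (ENSMUSG00000022371) stood at 263.9 CPM in control and 1172 in antibody cells (log2 ratio 2.15, interval 1.87 to 2.44), and after thinning it was seen in 27.9% and 62.9% of cells. Col12a1 stood at 366.7 and 805.4 (1.13, 0.89 to 1.39) and Col16a1 at 46.96 and 129.8 (1.44, 0.78 to 2.22). The 2 further calls rested on few UMIs, Col6a6 with 4 and 36 and Col28a1 with 5 and 47. In all, 5 of 23 chains were higher and 0 lower, while over all 7021 genes of this class 10.8% were 2-fold higher and 6.49% lower. The median of the 23 chains was 0.061, against -0.158 over all genes. Type IV chains were 418.2 and 402.7 CPM together, and the type VI family 1650 and 1521.

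In the class sums the major fibrillar chains were higher by less than 2-fold. Col1a1 had a log2 ratio of 0.90 (0.85 to 0.96), Col3a1 0.69 (0.65 to 0.74), Col1a2 0.54 (0.48 to 0.59) and Col5a1 0.49 (0.27 to 0.72), while Col5a3 had -0.97 (-1.18 to -0.75) and Col15a1 -0.93 (-1.23 to -0.62). Per cell, the median of Col1a1 was 65.1 UMIs per 10000 in control and 145.3 in antibody cells, with quartiles of 33.6 to 130.5 and 92.7 to 224.2. The medians of Col3a1 were 89.7 and 195.8, and those of Col1a2 65.5 and 100.0. By these medians Col1a1 and Col3a1 were more than 2-fold higher, and Col1a2 was not. The quartile ranges of the libraries overlapped for each of these chains. Some of the fibroblast markers that set the gate differed too: Clec3b was 268.3 and 1605 CPM, Pi16 167.7 and 672, Sfrp2 87.2 and 483.2, and Mfap4 38.0 and 191.1. Lum was 469.6 and 928, Dpt 275.1 and 587.8, Islr 60.4 and 104.6, and Fbln1 118.5 and 206.8, while Mfap5 was 2621 and 2010. The remaining markers were closer: Pdgfra was 232.6 and 284.9, Pdgfrb 89.5 and 87.8, Fap 78.3 and 86.6, Mmp2 458.4 and 551.8, and Cd34 221.4 and 236.8. All 14 were detected in both libraries. Smooth muscle markers stood at 1125 and 756.1 CPM and macrophage markers at 69.3 and 294.5. Differences in the kind of fibroblast gated and in level per cell cannot be told apart here. The fibroblast gate also asked for a Y-linked UMI. Without that rule it held 128 control and 100 antibody cells, against 43 and 62 with it. The rule thus left out a larger share of the control cells. Whether the cells left out were fibroblasts was not tested. The Col12a1 ratio was 0.97 under a looser gate, 0.82 after thinning and 0.93 as a mean over cells, and the Col28a1 ratio was 0.61 under a stricter gate.

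Decorin-high cells had lower collagen in the antibody library. Here 0 of 22 chains were 2-fold higher and 5 lower, where over 12799 genes 9.35% were higher and 4.84% lower. Type VI chains were lower together: Col6a3 was 46.2 and 16.5 CPM (log2 ratio -1.48, interval -1.76 to -1.22), Col6a2 38.7 and 17.0 (-1.18, -1.46 to -0.92) and Col6a1 127.5 and 79.5 (-0.68, -0.81 to -0.55), the last within 2-fold. Col18a1 was 53.8 and 22.4 (-1.26, -1.50 to -1.03). Col3a1 was 825 and 515.7 (-0.68, -0.73 to -0.63) and Col1a2 773.8 and 573.6 (-0.43, -0.48 to -0.38). Col1a1 went the other way at 91.6 and 109 (0.25, 0.12 to 0.38), as did Col16a1 at 45.2 and 64.1 (0.50, 0.32 to 0.69). T cells, the background, had Col1a1 at 3.61 and 38.4 CPM, from 1 and 86 UMIs. They had Col16a1 at 7.21 and 2.67 CPM, from 2 and 6 UMIs. The part of free RNA in the Col1a1 ratio was not tested. The fifth call, Col24a1, had only 18 and 7 UMIs and a ratio of 0.055 as a mean over cells. The median of the 22 chains was -0.393, against -0.175 over all genes; under a looser gate, without the Y-linked rule and with all chains of at least 1 UMI it was -0.015, -0.104 and -0.038.

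Col10a1 (ENSMUSG00000039462), best known as the type X chain of hypertrophic cartilage, had the largest ratio among chains with UMIs in both libraries. There were 121 UMIs in control and 5 in antibody decorin-high cells, 12.9 and 0.516 CPM (log2 ratio -4.52, interval -6.30 to -3.39). The control UMIs came from 73 cells, 3.935% of the class, with at most 10 in 1 cell. In the antibody library 4 cells (0.333%) had the 5 UMIs, at most 2 in 1 cell. After thinning the shares were 1.605% and 0.0856%. Over the whole libraries there were 210 and 20 UMIs. Col10a1 had 0 UMIs in fibroblast and endothelial cells of both libraries, which allows up to 6.71 and 3.61 CPM in fibroblast cells. The control cells with a Col10a1 UMI had a median depth of 4120 UMIs, against 4280 in the others, and held Col8a1 at 453.2 CPM against 269.4. The gene (chr10:34389981-34397085, plus strand) lies inside Nt5dc1 on the other strand, over 7105 bases. Nt5dc1 had 216 and 138 UMIs in these cells (log2 ratio -0.70, interval -1.02 to -0.38). Whether strand was used in counting is not given in the sources used here, so reads of the overlap cannot be told apart.

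In tumour cells 3 of 27 chains were 2-fold higher and 2 lower, against 10.6% and 4.27% of 15085 genes, and the median was -0.194 against -0.180 over all genes. The call with most UMIs was Col18a1 (ENSMUSG00000001435), at 32.6 and 13.4 CPM from 1024 and 387 UMIs (log2 ratio -1.28, interval -1.46 to -1.11), with a ratio of -0.91 under a stricter gate that kept 80 and 38 cells. Col18a1 was thus at least 2-fold lower in tumour, decorin-high and endothelial cells, and in fibroblast cells its ratio was -0.21 (-1.03 to 0.66). Col18a1 (chr10:77052178-77166548, minus strand) overlaps Slc19a1 on the other strand over 8825 bases, and Slc19a1 had a ratio of -0.44 (-0.59 to -0.29) in tumour cells. Among the larger chains Col8a1 was 299.4 and 210.7 CPM (-0.51, -0.55 to -0.46), Col6a3 23.9 and 13.8 (-0.79, -0.97 to -0.62), and Col1a1 40.5 and 58.7 (0.53, 0.43 to 0.64). T cells had Col1a1 at 3.61 and 38.4 CPM, from 1 and 86 UMIs, and the part of free RNA in the tumour ratio of Col1a1 was not tested. As in decorin-high cells the type VI family was lower, at 63.05 and 39.4 CPM together (-0.68, -0.78 to -0.57). Its 4 measured chains were all below 0, and none was called.

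Of the chains called higher in tumour cells, Col5a2 and Col12a1 were near the level of T cells. Col5a2 was 0.604 and 2.35 CPM, against 3.61 and 3.57 in T cells, where the control value is 1 UMI. Col12a1 was 0.636 and 1.45, against 0 UMIs and 2.67 CPM in T cells. One antibody tumour cell held 177 of 1698 Col1a1, 325 of 3037 Col3a1 and 19 of 68 Col5a2 UMIs. The Col5a2 ratio of 1.93 was 0.018 without doublet removal and 0.46 under a looser gate, and the Col12a1 ratio of 1.17 was 0.69 without doublet removal. Col28a1 rested on 5 and 19 UMIs, with 0 UMIs in T cells. Col24a1, called lower on 34 and 12 UMIs, had -0.78 under a looser gate and -0.73 without the keratin marker. None of these 4 is read here as a change of tumour cells.

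In endothelial cells 7 chains had 20 UMIs. Col18a1 was the 1 lower call (log2 ratio -1.15, interval -1.65 to -0.66), and its ratio was -0.71 as a mean over cells and -0.88 without doublet removal. Col4a1 had -0.65 (-0.91 to -0.38) and Col4a2 -0.95 (-1.25 to -0.67). Over all 2729 genes of this small class 11.3% were higher and 10.5% lower. The 2 higher calls were Col1a2, with 4 and 41 UMIs, and Col3a1, with 0 and 27, a log2 ratio of at least 2.67 against a floor of 3 UMIs in the class sum. All fibrillar chains together had 10 and 90 UMIs. One antibody cell held 25 of the 90 and all 58 smooth muscle UMIs, and Dcn stood at 58.5 and 601.9 CPM. The part of other cells or free RNA in these UMIs was not tested, and the Col1a2 ratio was 0.76 under a looser gate.

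In macrophages 0 of 18 chains were 2-fold higher and 3 lower, against 8.81% and 4.91% of 11404 genes. Col14a1 stood at 96.7 CPM in control and 20.5 in antibody macrophages, from 331 and 132 UMIs (log2 ratio -2.24, interval -2.54 to -1.94). It was seen in 28.3% of control and 10.8% of antibody macrophages, and after thinning in 9.99% and 1.16%, against 0% and 0.301% of thinned T cells. Thinning left out 43 and 42 shallower macrophages. No cell held more than 4 of the control or 5 of the antibody UMIs. Macrophages without any Col1a1, Col1a2 or Col3a1 UMI had 100.9 and 19.6 CPM, so the level and the difference were as large without the cells that carried fibrillar transcripts. The T cells had 0 and 7 UMIs of Col14a1, 0 and 3.12 CPM, and the count of 0 allows up to 10.8 CPM. Col14a1 lies at chr15:55307750-55520803 on the plus strand. The other lower calls, Col6a6 with 14 and 10 UMIs and Col15a1 with 23 and 12, were small, 1 control cell held 10 of the 23 Col15a1 UMIs, and the Col15a1 ratio of -1.82 was -0.86 under a stricter gate.

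**Figure D5:**
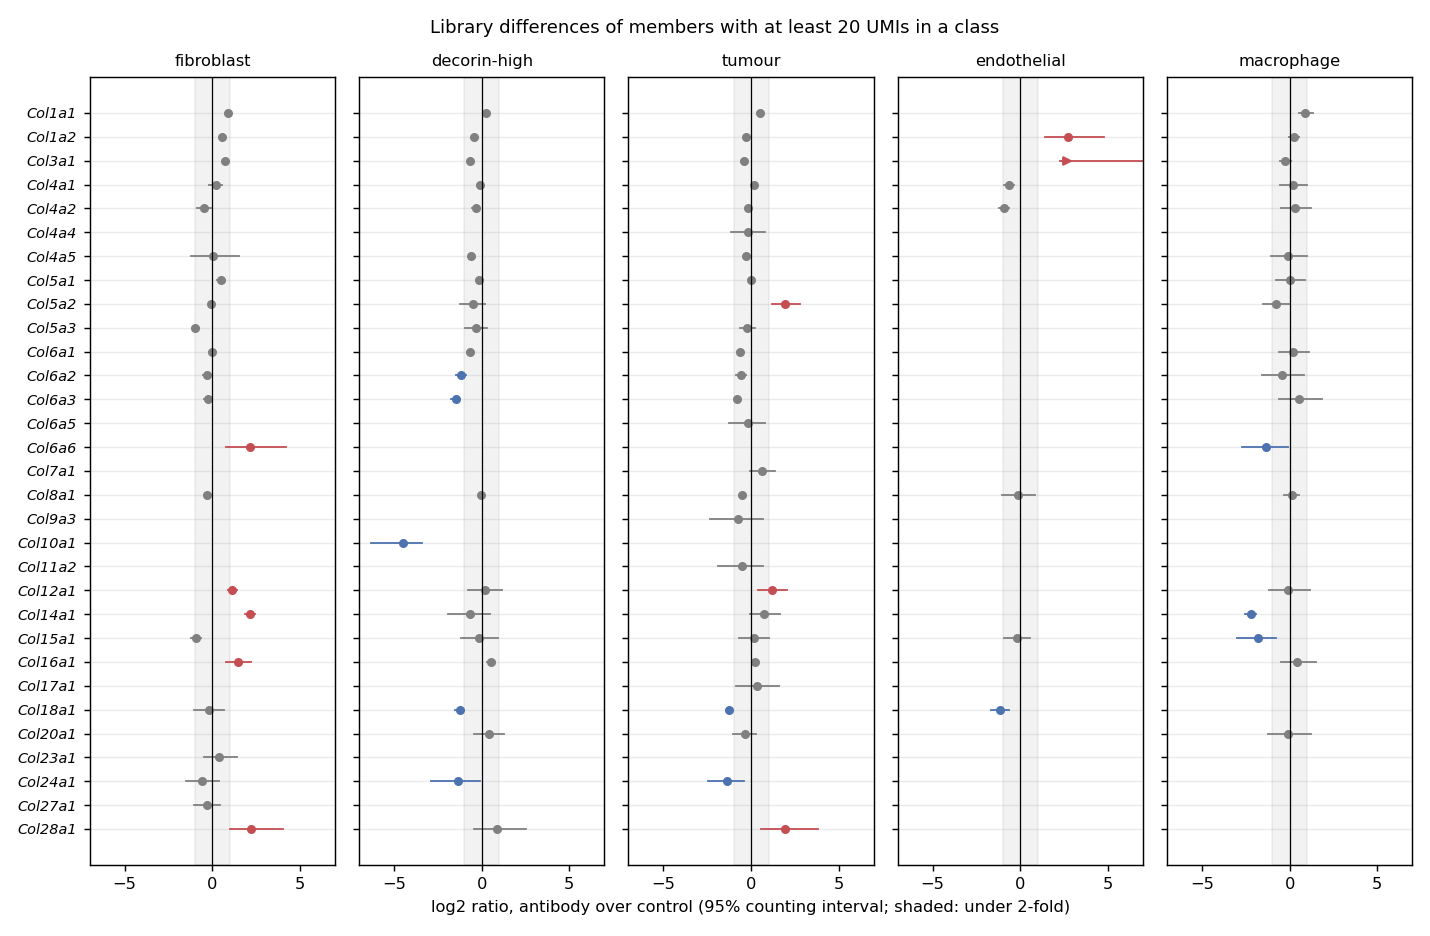
Log2 ratio of antibody over control for each chain with at least 20 UMIs in a class; bars are exact 95% counting intervals, the shaded band marks less than 2-fold, red is higher and blue lower, and the triangle is a lower bound against 3 UMIs. Col14a1 lies at 2.15 in fibroblast cells and at -2.24 in macrophages, Col10a1 at -4.52 in decorin-high cells, and Col18a1 between -1.28 and -1.15 in 3 classes.

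Genes that make, process and bind collagen were read from 3 lists. Of the biosynthesis list, which holds prolyl and lysyl hydroxylases, the chaperone Serpinh1, propeptide proteases and lysyl oxidases, 1 of 31 measured genes was 2-fold higher in fibroblast cells and 0 lower, against 10.8% and 6.49% of all genes of the class. It was Pcolce2, an enhancer of procollagen C-proteinase, with 12 and 110 UMIs (log2 ratio 2.25). Serpinh1 itself stood at 3734 and 3350 CPM and Sparc, a collagen-binding glycoprotein, at 17080 and 19720. In decorin-high cells 1 of 31 was higher and 3 lower (all genes 9.35% and 4.84%), among them the procollagen C-proteinase Bmp1 at 52.4 and 21.8 CPM (-1.27). In tumour cells 1 of 32 was higher and 0 lower (all genes 10.6% and 4.27%). In endothelial cells 1 of 11 was higher and 4 lower (all genes 11.3% and 10.5%), Sparc among them at 15800 and 6532 CPM (-1.27). In macrophages 0 of 23 differed in either direction (all genes 8.81% and 4.91%). The same shares over all genes apply to the 2 lists that follow.

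Of the collagen receptors, 1 of 5 was 2-fold higher in fibroblast cells, Itga11 with 4 and 29 UMIs, and no measured receptor was called in decorin-high, tumour, endothelial or macrophage cells. Of the basement membrane partners of type IV collagen, laminins, nidogens and proteoglycans, 2 of 9 were higher in fibroblast cells, with Lama2 at 78.3 and 169.5 CPM (1.10). In decorin-high cells 2 of 10 were lower, Lama2 at 11.7 and 3.92 (-1.56) and Lamb1 at 226.4 and 93.1 (-1.28). Lamb1, a laminin beta chain, was also the 1 of 11 lower in tumour cells, at 152.2 and 66.4 (-1.20). In endothelial cells 2 of 7 were lower, with Lama4, a laminin of vessel walls, at 577 and 218.3 CPM (-1.39). In macrophages 1 of 9 was higher and 1 lower.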

How the data were processed

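The authors deposited 1 table of UMI counts per gene and barcode for each library, from a Chromium Single Cell 3′ kit of 10x Genomics (per the labels). Cell Ranger 7.2.0, Seurat and build mm10 are named in the submitters' processing notes. The counts were whole numbers, used as deposited. Cells were kept from 500 UMIs and 200 genes upwards where mitochondrial UMIs were under 20%, and Scrublet (scanpy 1.11.5) removed 1537 control and 1164 antibody doublets, its highest scores up to 0.8% per 1000 cells.

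A cell entered a gate with at least 5 markers and 20 marker UMIs per 10000 (fibroblast, endothelial, T cell), 5 and 50 (macrophage), or as stated in the text. Fibroblast cells needed a Y-linked UMI, and decorin-high and tumour cells none of Y-linked genes or Ptprc. Cells passing 2 gates (5 and 12) were left out. Cut values came from marker levels after the tables had been seen. The collagen members, lists and gates were chosen with earlier results of these data known. Median depth and cell numbers of each class are in the text, and 1 library per group leaves no replicate error. Counts were summed per class and library; log2 ratios used class totals and a prior count of 0.5, and a 0 was set to a floor of 3 UMIs. A chain was named with values in a class where it had 100 UMIs, and calls needed 20; chains with fewer UMIs or singled out for a call, a background or an overlap were picked after their values were seen. Pathway genes were named at 100 UMIs and a log2 ratio of at least 1, up to 2 per list and direction, and Serpinh1, Sparc and Itga11 in fibroblast cells were picked afterwards. Gene positions are from GENCODE M21 (the mm10 assembly). No correction for free RNA was made. The scripts were tested on simulated data. Tools were scipy 1.17.1, numpy 2.4.6, matplotlib 3.10.9 and pandas 2.3.3 under Python 3.11.15. Alternatives were stricter cell filtering, no doublet removal, stricter and looser gates, no Y-linked rule, thinning to 1000 UMIs, other totals, median-of-ratios scaling, means over cells and other count minimums. A tumour gate without keratin markers, and leaving out the 1% of cells with the highest collagen share, were added after seeing the data.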

Additional observations from a re-analysis of the deposited data

Results flagged for a closer look

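Col14a1 pointed in opposite directions in fibroblast cells and macrophages. Its log2 ratio of antibody over control was 2.15 in fibroblast cells and -2.24 in macrophages. Col6a6, a type VI chain with few UMIs, had 2.12 in fibroblast cells and -1.38 in macrophages. With 1 library per group neither difference between cell types was tested.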

How the results depend on the processing

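No paired analysis was possible because each group had 1 library. Of 141 recomputations of the 13 main values, 83 stayed within a margin, and 58 moved beyond it. The cause was not tested. For the summed levels the margin was the counting interval. For the medians over chains it was the typical reach of the counting intervals of single chains. That is not an interval of the median, so staying within it does not show that a median was stable. Medians near 0 in fibroblast cells, endothelial cells and macrophages changed sign under some of them, so no direction is read from these. Of 196 recomputations of the 21 called chain differences, 179 stayed at least 2-fold, 16 fell under it and 1 reversed, Col24a1 in decorin-high cells, 0.055 as a mean over cells. Median-of-ratios scaling subtracts from every log2 ratio the median over genes, -0.159, -0.175, -0.181, -0.107 and -0.165 in fibroblast, decorin-high, tumour, endothelial and macrophage cells. Depth limits the small classes most: a count of 0 allows up to 25.1 and 17.7 CPM in endothelial cells.

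The median over chains was -0.242 in fibroblast cells under the looser gate, against 0.061. In decorin-high cells it was -0.015 under the looser gate, -0.104 without the Y-linked rule and -0.038 with chains of at least 1 UMI, against -0.393. In endothelial cells it was -0.954 over chains with at least 100 UMIs, and in macrophages 0.823 after thinning, which left 5 chains.

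The summed collagen level against tumour cells, on the log2 scale, kept its sign under each alternative run; "other totals" leave out mitochondrial, ribosomal, haemoglobin and collagen genes. Fibroblast cells in the control library were at 4.64 without doublet removal, 4.81 under the stricter gate, 4.83 under the looser gate, 4.47 without the Y-linked rule, 4.80 with other totals, 4.85 as a mean over cells and 4.83 without keratin markers. Fibroblast cells in the antibody library were at 5.69 without doublet removal, 5.78 under the stricter gate, 5.46 under the looser gate, 5.58 without the Y-linked rule, 5.87 after thinning, 5.75 with other totals, 5.94 as a mean over cells, 5.74 without keratin markers and 5.88 without the top 1% of cells. Decorin-high cells in the control library were at 1.07 without doublet removal, 1.19 under the stricter gate, 0.77 under the looser gate, 1.26 after thinning, 1.18 with other totals, 1.31 as a mean over cells and 1.14 without keratin markers. Decorin-high cells in the antibody library were at 1.05 without doublet removal, 0.97 under the stricter gate, 0.76 under the looser gate, 1.03 with other totals, 1.201 as a mean over cells and 0.98 without keratin markers. Endothelial cells in the control library were at 2.00 without doublet removal, 1.99 under the stricter gate and 2.04 with other totals. Endothelial cells in the antibody library were at 1.79 under the stricter gate, 1.73 under the looser gate, 2.63 after thinning, 1.95 with other totals and 2.47 as a mean over cells. Macrophages in the control library were at -1.08 without doublet removal, -2.63 under the stricter gate, -2.19 after thinning, -2.12 with other totals, -2.20 as a mean over cells and -2.36 without the top 1% of cells. Macrophages in the antibody library were at -1.20 without doublet removal, -2.65 under the stricter gate, -1.89 under the looser gate, -2.05 without the Y-linked rule, -1.89 after thinning, -2.16 with other totals, -1.72 as a mean over cells, -2.08 without keratin markers and -2.21 without the top 1% of cells.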
